A study of Homo sapiens with 6 samples.

Results

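Aminoacyl-tRNA synthetases are the enzymes that join each amino acid to its tRNA, and their mRNAs were examined here in HCT116, an established human colorectal cancer cell line. The genes were chosen by symbol alone: rows of the deposited table named by an amino acid's letter followed by ARS, with an optional final digit, together with EPRS1, FARSA and FARSB. The letter F is not in the rule, so FARS2 is not among them. This rule gave 37 genes of the 30676 in the table, of which 21 encode cytosolic enzymes and 16 encode mitochondrial enzymes, and all 37 passed the filter on low levels (a mean of at least 0.5 FPKM, the authors' measure of level per transcript length and sequencing depth). The control libraries came from cells given the vehicle DMSO at 0.1%, and the treated libraries from cells given 10 µM GIA, which the series title spells out as genistein isoflavonoid alkaloids. All cells were labelled wild type and were kept at 1% oxygen for 24 hours, so the low oxygen is shared by both groups and no cells at ambient oxygen were compared. There were 3 libraries in each group, and the labels do not say whether they came from separate cultures, so the p-values measure the spread between these libraries, which may be technical.

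The library totals ran from 55725249 to 67835059 estimated counts, and every GIA library (64804849 or more) was deeper than every DMSO library (63542466 or fewer). No gene of the 13721 tested passed an adjusted p under 0.05 in edgeR's quasi-likelihood test, where the smallest adjusted p was 0.875. The labelled cell type was set against 12 colorectal epithelial markers, 10 of which were in the table, while CDX1 and CDX2 were not. The keratin genes KRT8 (134 to 151 FPKM), KRT18 (219 to 274) and KRT19 (26.2 to 29.9) and the claudin gene CLDN7 (10.2 to 14.9) were plainly present in all 6 libraries. The epithelial adhesion genes EPCAM (0.119 to 0.335 FPKM) and CDH1 (0.0165 to 0.0490) were near 0, as were CLDN3 (0.154 to 0.542), VIL1 (at most 0.0122) and LGALS4 (at most 0.0751). CLDN4 was low, at 0.818 to 1.02 FPKM. Of 6 fibroblast markers in the table, LUM reached 157 to 197 FPKM and DCN 11.2 to 16.0. COL3A1 was listed at 0 in all libraries but GIA 2. PDGFRB (3.77 to 5.38 FPKM) and COL1A1 (2.23 to 3.17) were low, and THY1 (0.0374 to 0.133) was near 0. COL1A2 and PDGFRA were not in the table. The low adhesion genes and the high LUM go against the labelled cell type, although most other fibroblast markers were low or near 0. HCT116 is used here as the label gives it.

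Each synthetase recognises its amino acid and the matching tRNAs, activates the amino acid with ATP and transfers it to the end of the tRNA, so that the ribosome can place it by the tRNA's anticodon. The enzymes fall into class I and class II by the fold of their catalytic domain. Mitochondria translate their own small genome with a separate set of synthetases, which are encoded in the nucleus and imported, while GARS1 and KARS1 each supply both compartments from a single gene and EPRS1 joins the glutamyl and prolyl enzymes in a single protein. Several cytosolic synthetases sit in a large multi-synthetase complex held together by the scaffold proteins AIMP1, AIMP2 and EEF1E1. Uncharged tRNA activates the kinase GCN2 (gene EIF2AK4), which raises translation of the transcription factor ATF4, and many cytosolic synthetase genes are known ATF4 targets.

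A known response motif was found at the start of some cytosolic genes, and these windows are printed before the levels. RefSeq promoters (GRCh38.p14, 250 bases before to 50 bases after an annotated start, 300 bases in all) were given for 29 of the 37 genes, 16 cytosolic and 13 mitochondrial. The motif TTGCATCA, the core of the amino acid response element bound by ATF4 with C/EBP partners, was searched on both strands (reverse complement TGATGCAA). It was found at 6 of 29 genes (20.7%), all of them among the 16 cytosolic genes and none among the 13 mitochondrial genes. Of all 27305 genes with such a window 1.08% hold it, and of the 9448 tested genes with a window 0.720% do. The 6 windows follow, each of 30 bases, 5′ to 3′ on the gene's strand, with the motif in capitals.
AARS1: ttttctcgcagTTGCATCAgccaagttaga
CARS1: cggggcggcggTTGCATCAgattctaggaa
IARS1: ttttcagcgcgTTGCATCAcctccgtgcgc
MARS1: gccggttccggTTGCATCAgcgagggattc
NARS1: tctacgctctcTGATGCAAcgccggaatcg
TARS1: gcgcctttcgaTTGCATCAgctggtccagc
The AARS1 window lies at chr16:70289675-70289704 on the minus strand, and its motif begins 187 bases before the RefSeq start. In CARS1 (chr11:3057407-3057436, minus), IARS1 (chr9:92293692-92293721, minus) and MARS1 (chr12:57488053-57488082, plus) the motif begins 2, 13 and 4 bases before the start. In TARS1 (chr5:33440956-33440985, plus) it begins at base 3 and in NARS1 (chr18:57621804-57621833, minus), where it runs on the opposite strand, at base 15 of the transcript. In 5 of the 6 genes the motif thus begins within 15 bases of a RefSeq start. The AARS1 model in the deposited table starts further upstream than that gene's RefSeq start, at base 70289707, close to the motif. The deposited models of CARS1, MARS1 and TARS1 also start upstream of their windows, at bases 3057613, 57475445 and 33440696. For those genes the nearness holds only for the RefSeq start used. A match of letters is a description and does not show that a factor binds there.

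A motif of the ETS factors, CCGGAAG (reverse complement CTTCCGG), was present in both compartments, at 9 of 16 cytosolic and 7 of 13 mitochondrial genes. That is 16 of 29 (55.2%), beside 12.2% of all genes and 23.5% of the tested genes. The histidyl pair shows it at a shared start region: HARS1 and HARS2 are read in opposite directions from chromosome 5, with RefSeq starts at 140691370 and 140691455, 85 bases apart. The 2 windows, again in the direction of each gene and with the motif in capitals, are these.
HARS1: cgactcgatagCCGGAAGtcatccttgctg
HARS2: tccggctcctcCCGGAAGtgccgaagctgg
The HARS1 window is chr5:140691361-140691390 on the minus strand with the motif 9 bases before the start, and the HARS2 window is chr5:140691436-140691465 on the plus strand with the motif 8 bases before the start. Since the starts face each other, each of these motifs also lies inside the other gene's 300-base region. Most other motifs stood closer to the tested genes. The E-box CACGTG was at 4 of 29 genes (13.8%; 13.0% of tested genes), and the NRF1 motif GCATGCGC at 2 (6.90%; 6.59%). The shorter ACGTG, a form of the hypoxia response core that every CACGTG contains, was at 9 (31.0%; 32.9%). GCGTG, the other form of that core, stood further above the tested genes, at 24 (82.8%; 59.1%). CCAAT was at 16 of 29 (55.2%; 43.7%) and the TATA box TATAAA at 2 (6.90%; 8.03%). The median GC content of the members' windows was 62%, beside 65% for the tested genes.

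The cytosolic genes were expressed at a high level and over a wide range. Their median was between 44.2 and 46.7 FPKM in each of the 6 libraries, and their sum was 1106, 1118 and 1110 FPKM in DMSO 1 to 3 and 1115, 1058 and 1083 in GIA 1 to 3. TARS1 (chr5:33440696-33468091), the cytosolic threonyl-tRNA synthetase, was the highest, above 99.2% of all tested genes. It measured 229, 230 and 230 FPKM with DMSO and 232, 208 and 220 with GIA. The DMSO libraries lay within about a single unit (mean 230 ± 0.524, SD, n = 3), the GIA libraries were spread more widely (220 ± 11.9), and GIA 1 was above every DMSO library, so the groups overlapped.

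EPRS1 (chr1:219968600-220046530), which charges both glutamate and proline tRNAs, followed with 109, 110 and 110 FPKM with DMSO and 109, 110 and 106 with GIA. It was among the steadiest of the genes, with a log2 fold change (GIA over DMSO) of -0.02 (SE 0.03, 95% interval -0.08 to 0.04). FARSA (chr19:12922479-12934037), the alpha subunit of the cytosolic phenylalanyl enzyme, measured 89.6, 92.3 and 87.8 FPKM with DMSO and 88.3, 75.7 and 85.2 with GIA. GIA 2 was the lowest of its libraries by a wide gap and GIA 1 lay inside the DMSO range. FARSB, the beta subunit that pairs with FARSA in equal numbers in the enzyme, averaged 16.0 FPKM under DMSO (SD 0.450, n = 3) and 15.7 under GIA (SD 0.457, n = 3). By FPKM it was well under FARSA in every library. The counts lay closer, at 13273 to 15963 per library for FARSA and 6534 to 8132 for FARSB, so the FPKM gap depends on the lengths used.

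The next genes by level were AARS1 (alanine), IARS1 (isoleucine), NARS1 (asparagine) and KARS1 (lysine), with means over the 6 libraries of 76.0, 73.2, 60.1 and 59.8 FPKM. NARS1 and KARS1 differed by less than the SD of NARS1 in either group. WARS1 (tryptophan) and SARS1 (serine) stood together at 53.1 and 53.0 FPKM, a gap smaller than the SD of either gene within a group. MARS1 (methionine) was at 50.7, VARS1 (valine) at 45.5, QARS1 (glutamine) at 39.5, RARS1 (arginine) at 38.0, YARS1 (tyrosine) at 35.2 and GARS1 (glycine) at 30.2 FPKM. A lower tier held LARS1 (leucine, 17.8), FARSB and CARS1 (cysteine, 10.2). This order is by FPKM and depends on the length used for each gene. Counts, which take no account of length, gave another order. GARS1 had 32470 to 40201 counts per library, near EPRS1 (35225 to 43328), and LARS1 had 22221 to 27171, near MARS1 (21317 to 28023). MARS1 overlaps the stress gene DDIT3 over 982 bases on the opposite strand, and DDIT3 was at 27.8 FPKM. The libraries were strand-specific, per the labels' protocols, but no source used here states whether the counting used strand, so reads in such overlaps cannot be assigned with certainty.

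The lowest cytosolic genes by FPKM were HARS1 (chr5:140673035-140691537), for histidine, and TARS3 (chr15:101653596-101724473), a second cytosolic threonyl enzyme. HARS1 measured 5.90, 6.12 and 6.22 FPKM with DMSO and 5.90, 5.52 and 5.75 with GIA. Its highest GIA library lay just under its lowest DMSO library, so the groups did not overlap, by a margin too small to show at this rounding. TARS3 measured 2.13, 2.31 and 2.18 FPKM with DMSO and 2.19, 2.04 and 2.28 with GIA, far under TARS1, and its groups overlapped.

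The mitochondrial genes were lower as a set. Their median was between 7.89 and 8.96 FPKM, and their sum was 219, 222 and 221 FPKM in DMSO 1 to 3 and 214, 220 and 213 in GIA 1 to 3. The ratio of the cytosolic to the mitochondrial sum was 5.05, 5.03 and 5.01 with DMSO and 5.22, 4.81 and 5.09 with GIA. The DMSO libraries were nearly identical in this ratio, and the GIA libraries lay on both sides of them. Both sets together made up 0.497% to 0.519% of all FPKM in each library. These are bulk samples, in which fewer expressing cells and less RNA per cell cannot be told apart.

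**Figure D1:**
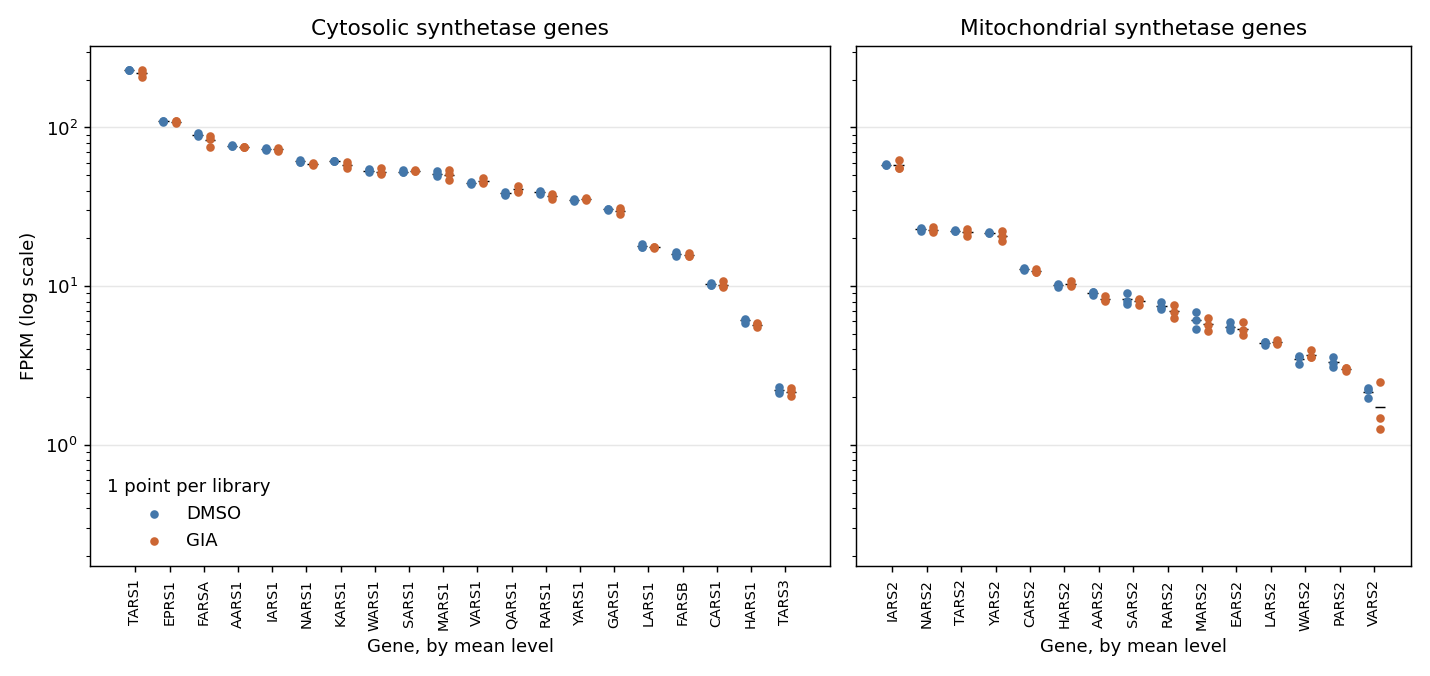
FPKM (log axis) of 20 cytosolic and 15 mitochondrial synthetase genes, ordered by mean level, with 1 point per library (3 DMSO, 3 GIA) and a bar at each group mean. TARS1 stands highest at 208 to 232 FPKM, and the mitochondrial set starts at IARS2 and ends at VARS2.

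IARS2 (chr1:220094132-220148041), the mitochondrial isoleucyl enzyme, was the highest mitochondrial gene, above 95.4% of the tested genes. It measured 58.3, 58.7 and 58.4 FPKM with DMSO and 55.3, 62.6 and 55.8 with GIA. The DMSO libraries had an SD of 0.208 and the GIA libraries an SD of 4.07, with GIA 2 above and the other two below every DMSO library. NARS2 (chr11:78435968-78574874; asparagine) measured 22.4, 22.8 and 23.4 FPKM with DMSO and 22.04, 23.4 and 22.7 with GIA. The NARS2 values overlapped between the groups.

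TARS2 (threonine, 22.2 FPKM over the 6 libraries) and YARS2 (tyrosine, 21.2) were close to NARS2, and the neighbours in this order differed by less than the SD of the noisier gene with GIA. CARS2 (cysteine, 12.6), HARS2 (histidine, 10.2), AARS2 (alanine, 8.68), SARS2 (serine, 8.17) and RARS2 (arginine, 7.23) formed a middle tier. MARS2 (methionine, 5.93), EARS2 (glutamate, 5.47), LARS2 (leucine, 4.41) and WARS2 (tryptophan, 3.58) were lower. HARS2 shares 612 bases on the same strand with ZMAT2, which was at 31.2 FPKM, and 108 bases with HARS1 on the other strand. YARS2 lies across 18161 bases of DNM1L (18.6 FPKM) on the other strand, and SARS2 across 216 bases of MRPS12 (20.3 FPKM).

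The lowest were PARS2 (chr1:54756898-54764523), for proline, and VARS2 (chr6:30914205-30926459), for valine. PARS2 measured 3.60, 3.30 and 3.08 FPKM with DMSO and 2.93, 3.05 and 3.04 with GIA, without overlap but with only a small gap between 3.08 and 3.05. VARS2 measured 2.29, 1.98 and 2.21 FPKM with DMSO and 1.27, 2.50 and 1.47 with GIA. GIA 2 was the highest of the 6 VARS2 values and the other GIA libraries were the lowest and the spread was wider with GIA (SD 0.663) than with DMSO (SD 0.163). All 12255 bases of VARS2 lie within another gene model on the same strand, AL669830, so the same reads could be given to either. The share of their combined counts given to VARS2 was 42.0%, 29.0% and 40.1% with DMSO and 16.9%, 36.5% and 24.5% with GIA. The combined counts as CPM were 38.7, 48.7 and 39.3 with DMSO and 53.7, 48.6 and 42.9 with GIA, so the sum of both models was not low in the libraries where VARS2 was low.

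Setting each cytosolic gene against its mitochondrial counterpart gave 16 pairs, with EPRS1 entering for both glutamate and proline. The cytosolic gene was higher in all 6 libraries in 13 pairs, and in 8 of these it was more than 5-fold higher in every library. The ratio of FPKM was 30.2 to 37.3 for proline (EPRS1 over PARS2), 18.5 to 22.4 for glutamate (EPRS1 over EARS2), 19.2 to 35.5 for valine, 12.9 to 16.3 for tryptophan and 9.08 to 11.1 for threonine. Among the 13 pairs the ratio was lowest for isoleucine (1.14 to 1.35) and next for tyrosine (1.58 to 1.83). By FPKM the mitochondrial gene was the higher in all 6 libraries in 3 pairs, among them histidine and cysteine.

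For cysteine the ratio of CARS1 to CARS2 was 0.801, 0.817 and 0.783 with DMSO and 0.836, 0.805 and 0.807 with GIA. For histidine the ratio of HARS1 to HARS2 was 0.580, 0.624 and 0.600 with DMSO and 0.578, 0.510 and 0.576 with GIA. Histidine was the only pair of the 16 whose ratios did not overlap between the groups, lower with GIA, and the gap was the narrow one between 0.580 and 0.578. The histidyl values carry the overlap of the 2 genes described above. By counts the histidyl order was the other way, with 5092 to 6201 per library for HARS1 and 2275 to 2989 for HARS2. The FPKM order of this pair therefore rests on the length used for each gene, which was not checked here.

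**Figure D2:**
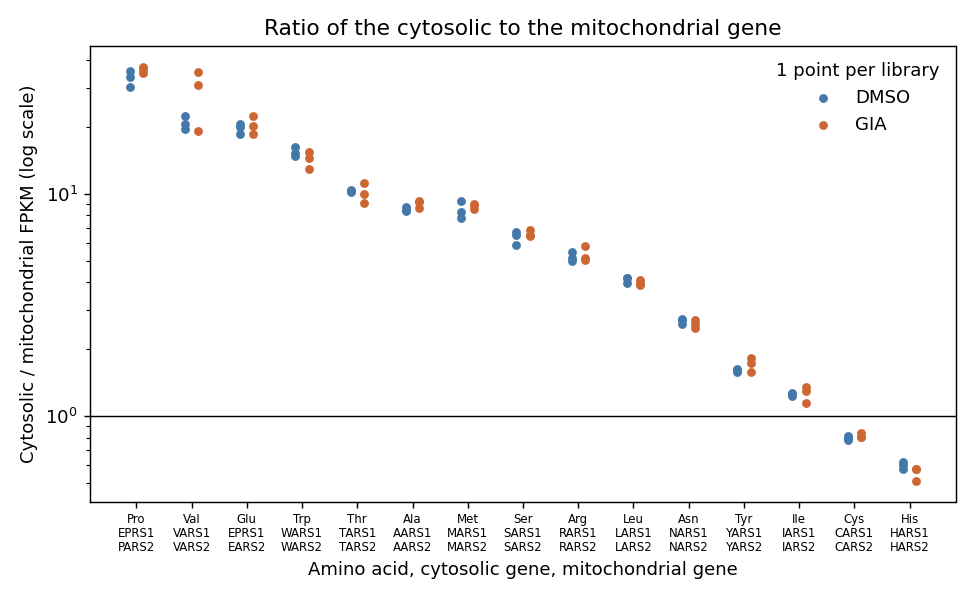
Ratio of cytosolic to mitochondrial FPKM (log axis) for 15 amino acids, with 1 point per library and a line at 1. Histidine and cysteine lie below the line in all 6 libraries, isoleucine lies just above it, and proline is highest at 30.2 to 37.3.

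Between GIA and DMSO no synthetase gene passed the test in either direction. Of the 37 genes, 0 were called higher and 0 lower at an adjusted p under 0.05 by edgeR, beside 0% of all tested genes in each direction. DESeq2 and limma also called 0 of 37, with 0 higher and 3 lower at an unadjusted p under 0.05 in each. Over all tested genes the lower share was 1.90% by DESeq2 and 2.37% by limma, and the higher share 2.84% and 2.51%. At an unadjusted p under 0.05 edgeR gave 0 genes higher (2.65% of all tested genes) and 1 lower, AARS2 (1.95% of all tested genes). The log2 fold change was negative for 29 of 37 genes (78.4%, beside 49.8% of all tested genes), in 16 of 21 cytosolic and 13 of 16 mitochondrial genes.

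The medians were -0.03 on the log2 scale for the cytosolic genes and -0.04 for the mitochondrial genes, beside 0.00038 for all tested genes. Among the 7006 genes with a mean of at least 5 FPKM, a level closer to that of most members, 56.3% were negative and the median was -0.0097. The FPKM of the groups did not overlap for 8 members with GIA lower (5.60% of all tested genes, and 497 of the 7006) and for 1 member with GIA higher (5.63%). The 8 included AARS1, HARS1, KARS1, NARS1, RARS1, AARS2 and PARS2, and the 1 was QARS1.

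AARS2 (chr6:44298731-44313347), the mitochondrial alanyl enzyme, had the smallest p of the set. It measured 9.14, 9.14 and 8.81 FPKM with DMSO and 8.69, 8.19 and 8.11 with GIA, so every GIA library was below every DMSO library. The fitted log2 difference was -0.12 (SE 0.05), the 95% interval reached from -0.22 to -0.01, and the edgeR p was 0.034 before and 0.875 after adjustment over all genes. RARS2 (chr6:87513938-87589987), for mitochondrial arginine, measured 7.45, 7.93 and 7.20 FPKM with DMSO and 6.34, 6.90 and 7.57 with GIA. Its groups overlapped through GIA 3, and its log2 fold change was -0.12 (SE 0.08).

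KARS1 (chr16:75627474-75647665), which charges lysine tRNAs in both compartments, measured 61.7, 61.5 and 61.5 FPKM with DMSO and 60.4, 55.5 and 58.2 with GIA. All GIA values were lower, GIA 2 by the most, and the log2 fold change was -0.09 (SE 0.04, edgeR p 0.053, adjusted 0.875). GARS1 (chr7:30580533-30634033), the other gene that serves both compartments, measured 30.7, 30.6 and 30.0 FPKM with DMSO and 31.2, 28.7 and 30.1 with GIA. It overlapped between the groups, with a log2 fold change of -0.02 (SE 0.04).

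RARS1 (chr5:168486451-168519298), the cytosolic arginyl enzyme of the complex, measured 38.2, 39.5 and 39.5 FPKM with DMSO and 36.8, 35.6 and 38.1 with GIA. It was lower in all GIA libraries by a narrow margin, at a log2 fold change of -0.09 (SE 0.04, edgeR adjusted p 0.875). QARS1 (chr3:49095932-49105123), the glutaminyl enzyme, was higher in every GIA library, with 39.1, 37.7 and 38.4 FPKM with DMSO and 39.4, 42.8 and 39.8 with GIA. Its log2 fold change was 0.08 (SE 0.04, edgeR adjusted p 0.875), and GIA 2 was the highest library. HARS1, whose values are above, had a log2 fold change of -0.09 (SE 0.04).

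The 95% interval of the fold change lay within 1.2-fold either way for 32 of the 37 genes, beside 7676 of the 13721 tested genes and 5966 of the 7006 with a mean of at least 5 FPKM, and within 1.5-fold for 36. All 21 cytosolic genes were within 1.2-fold, the 5 outside it were MARS2, PARS2, RARS2, VARS2 and WARS2, and VARS2 had the widest interval, 0.575 to 1.13-fold. For TARS1 the interval was 0.896 to 1.02-fold and for FARSA 0.843 to 1.01-fold.

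**Figure D3:**
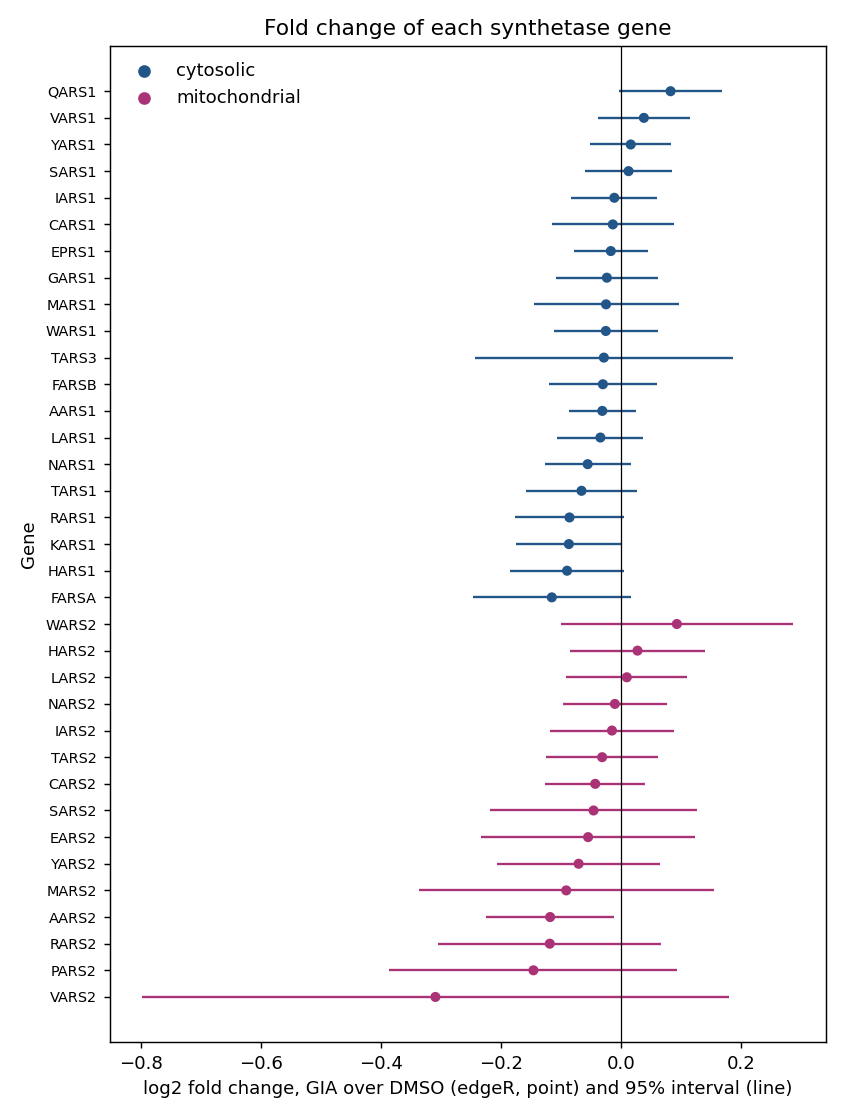
Log2 fold change of each gene, GIA over DMSO, from edgeR (point) with its 95% interval (line), cytosolic genes above and mitochondrial genes below. Points lie left of 0 for 28 of the 35 genes plotted, and the AARS2 interval (-0.22 to -0.01) does not reach 0 before adjustment for the number of genes tested.

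The genes with the amino acid response motif were not set apart in the comparison. AARS1, CARS1, IARS1, MARS1, NARS1 and TARS1 had log2 fold changes of -0.03, -0.01, -0.01, -0.02, -0.06 and -0.07, none called. ATF4 itself measured 153, 152 and 152 FPKM with DMSO and 152, 159 and 156 with GIA, with a log2 fold change of 0.03 (SE 0.03). By catalytic class, 13 of 18 class I genes and 15 of 18 class II genes were negative, with medians of -0.03 and -0.04. Class II held 7 of the 8 genes that were lower without overlap, class I held RARS1, and the classes were not tested against each other.

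None of the genes around the synthetases was called by edgeR either. The 8 synthetases of the multi-synthetase complex had 6 negative log2 fold changes and a median of -0.02. Their scaffolds were negative in 3 of 3, at -0.05 for AIMP1, -0.08 for AIMP2 and -0.12 for EEF1E1. EEF1E1, the gene with the largest of these, measured 32.8, 32.0 and 30.7 FPKM with DMSO and 31.5, 25.9 and 30.8 with GIA, and GIA 2 alone lay below the DMSO range. The mitochondrial route that makes glutaminyl-tRNA by amidation, for which no mitochondrial glutaminyl synthetase gene is needed, had 0 calls among QRSL1, GATB and GATC and a median of -0.0094. The 4 genes listed for removal of mischarged amino acids (AARSD1, DTD1, DTD2, PRORSD1P) had 1 negative value and a median of 0.03. PRORSD1P is named as a pseudogene and was low, at a mean of 0.510 FPKM. It had the largest log2 fold change of the 4, 0.23 (SE 0.28).

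Of 35 genes of tRNA synthesis, processing and export, 0 were called and 27 were negative, with a median of -0.05 and 6 lower without overlap. Over all tested genes 49.8% were negative and 5.60% were lower without overlap. GIA 2 was the lowest library for 21 of the 35, beside 3273 of the 13721 tested genes. The median deviation of the 35 from their own 6-library means was 0.010, -0.093 and -0.0013 in GIA 1 to 3 on the log2 scale. At an unadjusted edgeR p under 0.05, 2 of the 35 were lower, POLR3K and ELAC1, beside 1.95% of all tested genes. POLR3K, a small subunit of RNA polymerase III, measured 13.8, 14.8 and 13.4 FPKM with DMSO and 12.7, 11.9 and 12.2 with GIA, all lower (log2 fold change -0.19, SE 0.07, edgeR p 0.019, adjusted 0.875). ELAC1, a tRNA end-processing enzyme, averaged 0.861 FPKM under DMSO (SD 0.122, n = 3) and 0.641 under GIA (SD 0.0432, n = 3; edgeR p 0.038, adjusted 0.875). Of 10 users of charged tRNA, 9 were negative with a median of -0.04, and TSFM, the mitochondrial elongation factor that recycles TUFM, measured 13.8, 14.3 and 14.5 FPKM with DMSO and 12.6, 13.2 and 13.3 with GIA. TSFM was lower in all GIA libraries, with an edgeR p of 0.020 and an adjusted p of 0.875.

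Of 13 genes that sense uncharged tRNA or respond to it, 0 were called and 9 were negative (49.8% of all tested genes), with a median of -0.04. GIA 2 was the lowest library for 8 of the 13. Their median deviation from their own means was 0.034, -0.061 and -0.020 in GIA 1 to 3 on the log2 scale. At an unadjusted edgeR p under 0.05, 2 of the 13 were lower, CHAC1 and EIF2S1, beside 1.95% of all tested genes. CHAC1, a glutathione-degrading enzyme that is an ATF4 target, measured 16.2, 16.4 and 15.8 FPKM with DMSO and 15.3, 11.5 and 12.7 with GIA. It was lower in every GIA library (log2 fold change -0.29, SE 0.10, edgeR p 0.015, adjusted 0.875). ASNS, the asparagine synthetase gene and another ATF4 target, had a log2 fold change of -0.03 (SE 0.05), and EIF2AK4 one of 0.03 (SE 0.04). EIF2S1, the alpha subunit of the initiation factor that GCN2 phosphorylates, averaged 26.6 FPKM under DMSO (SD 1.19, n = 3) and 24.8 under GIA (SD 0.276, n = 3; edgeR p 0.032, adjusted 0.875).

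The share of negative values and the cytosolic median depended on which library was left out. The share shifted most without GIA 2 or DMSO 2, and the cytosolic median most without GIA 1 or GIA 2. The median deviation of the 37 genes from their own 6-library means was -0.04 in GIA 2 and -0.02 in GIA 3 but 0.0049 in GIA 1 on the log2 scale, beside 0.0016, 0.03 and 0.01 in DMSO 1 to 3. GIA 2 was the lowest library for 17 of the 37 genes, 12 of them cytosolic, and the highest for 9. Over all 13721 tested genes it was the lowest for 3273 and the highest for 4066, and over the 7006 with a mean of at least 5 FPKM the lowest for 2234 and the highest for 1956. Without GIA 2, 24 of 37 genes were negative, the cytosolic median was -0.0028 with 11 of 21 negative, and the mitochondrial median was -0.03. Without GIA 1 the medians were -0.06 in both compartments and 16 genes were lower without overlap, beside 13.5% of all tested genes with the same libraries. Leaving out DMSO 1, DMSO 2 or DMSO 3 gave 9, 8 and 9 such genes, beside 10.6%, 9.54% and 10.2% of all tested genes, and leaving out GIA 2 or GIA 3 gave 11 and 9, beside 10.9% and 9.2%. Without DMSO 2 the medians were -0.01 and -0.03 and 25 genes were negative.

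GIA 2 differed from the other libraries in marker genes as well. The summed level of the 6 fibroblast markers, most of it LUM, was 178 to 195 FPKM with DMSO and 175, 222 and 197 in GIA 1 to 3. In GIA 2, 5 of the 6 were highest, among them COL3A1 at only 0.0077 FPKM and 5 counts. Over all tested genes GIA 2 was the highest library for 4066 of 13721. The summed level of the 10 epithelial markers was 447 to 452 FPKM with DMSO and 464, 398 and 443 in GIA 1 to 3. Most of this sum is KRT8 and KRT18, which were lowest in GIA 2 (134 and 219 FPKM). The other markers did not share this. CLDN7 was highest in GIA 2, at 14.9 beside 10.2 to 11.8 FPKM elsewhere, and KRT19 (27.7) lay inside its DMSO range. The 4 leukocyte markers summed to 17.9 to 24.7 FPKM with DMSO and 17.0 to 23.1 with GIA, nearly all of it CD68, and PTPRC was at most 0.0162. The 4 endothelial markers were near 0 in every library. The part of these marker levels, or of the deeper GIA libraries, in the synthetase values was not tested.

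**Figure D4:**
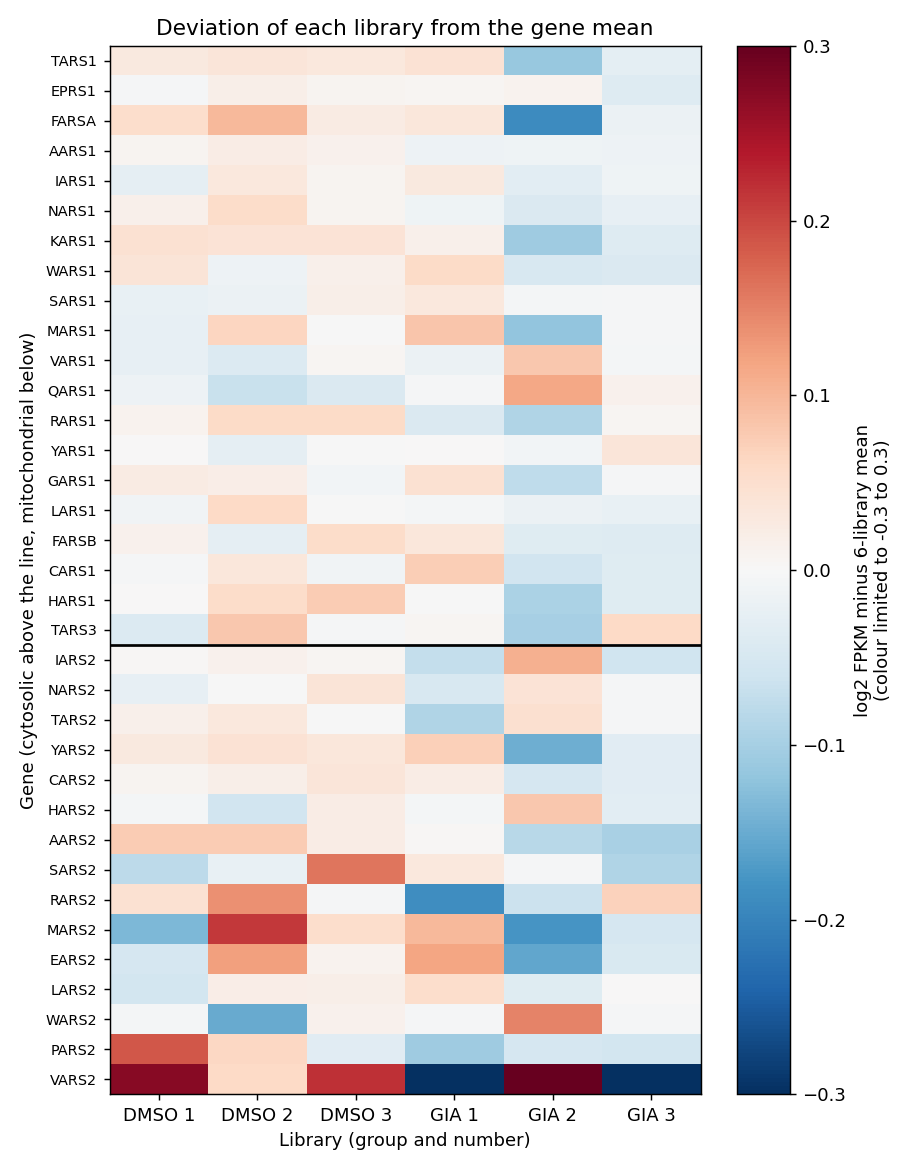
Log2 FPKM of each synthetase gene in each library minus the gene's mean over the 6 libraries (colour limited to -0.3 to 0.3), cytosolic genes above the line. The GIA 2 column is mostly blue among the cytosolic genes, with QARS1 and VARS1 among the exceptions, and VARS2 shows the widest swings.

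Within a group the genes were tightly measured. The median coefficient of variation of the 37 genes was 2.00% with DMSO and 4.15% with GIA, beside 4.90% and 6.34% for all tested genes and 3.16% and 4.46% for those with a mean of at least 5 FPKM. The spread was wider with GIA than with DMSO in each of these sets of genes.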

How the data were processed

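The table deposited by the authors gives, for each gene and library, estimated counts (whole numbers) and FPKM. Per the submitters' processing notes, the tools were HISAT2 2.2.1 and StringTie 2.1.6, with DESeq2 1.22.2, cutadapt and FastQC 0.10.1, on GRCh38 (hg38), and no role is given for any. No source used here names the annotation release. From the deposited counts, genes with a mean of at least 0.5 FPKM (13721 of 30676) were fitted with edgeR 4.0.16 (R 4.3.3; TMM factors 0.9966 to 1.007, quasi-likelihood test, two-sided, Benjamini-Hochberg over all tested genes, threshold 0.05), tested first on simulated data. The common biological coefficient of variation was 11%. The simulated counts were given a smaller one, so they do not show how the test behaves at this spread. The smallest p an exact permutation test could give with 3 against 3 is 0.1, so none was used. Levels and overlap used the deposited FPKM as given, per the file headers. DESeq2 1.42.0, limma 3.58.1 on log2(FPKM + 0.5), other scalings and filters, and leaving out each library were alternatives.

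Values in every library are given, in each compartment, for the 3 highest and 2 lowest genes, the 4 of smallest p, and GARS1 and KARS1. The values of 2 member genes are not reported here; they stay in the counts and medians and are left out of the plots. The genes, lists and motifs were chosen with earlier results of these data known. The member counts ran from 483 to 73190 per library. Same-numbered DMSO and GIA libraries did not deviate together (correlations -0.062, -0.12 and 0.19), so the numbers were not taken as pairs.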

Additional observations from a re-analysis of the deposited data

How the results depend on the processing

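No synthetase gene was called under any alternative tried, in either direction. The cytosolic and mitochondrial medians stayed negative throughout, from -0.055 to -0.0028 and from -0.064 to -0.026 when each library was left out in turn. Over all tested genes, leaving out a library gave 0 to 2 genes called higher and 0 to 3 lower, and the replicate block, with the library number as a term, gave 1 higher and 2 lower, none a synthetase gene, with medians of -0.027 and -0.043. Only replicate 3 deviated most like its own number. The count of members lower without overlap was 8 to 16 when a library was left out, the highest without GIA 1, where 13.5% of all tested genes were lower without overlap, and that share was 9.20% to 10.9% without any other library. Other scalings, tools, filters and pseudocounts reversed no member. A filter at 5 FPKM kept 32 members and moved 10 of them by over 1.5 times. Leaving out a library reversed some members, whose log2 fold changes then ranged as follows: CARS1 (-0.057 to 0.016), GARS1 (-0.055 to 0.012), IARS1 (-0.031 to 0.0060), MARS1 (-0.077 to 0.030), SARS1 (-0.0022 to 0.023), TARS3 (-0.068 to 0.018), YARS1 (-0.00053 to 0.029), EARS2 (-0.13 to 0.010), HARS2 (-0.0022 to 0.047), IARS2 (-0.070 to 0.014), LARS2 (-0.017 to 0.035), NARS2 (-0.029 to 0.0092), SARS2 (-0.094 to 0.026) and TARS2 (-0.059 to 0.0030). The cause was not tested.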

Other observations

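FARS2, the mitochondrial phenylalanyl-tRNA synthetase, is outside the naming rule because its letter is not in the rule's class. It measured 5.16, 5.71 and 5.10 FPKM with DMSO and 4.93, 5.54 and 5.66 with GIA, a level in the range of the other mitochondrial genes, and its groups overlapped (log2 fold change 0.01, SE 0.08, edgeR adjusted p 0.985). The pseudogene RARS1P1 and the antisense gene FARSA-AS1 were near 0, at most 0.0566 and 0.161 FPKM.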
